A study of Mus musculus with 4 samples.

Results

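The liver macrophage genes described here, 10 of the 36161 gene names on the array, were followed in the liver of microsomic and control mice of each sex. They are *Cd68*, *Emr1* (now *Adgre1*), *Clec4f*, *Marco*, *Vsig4*, *Cd163*, *Csf1r*, *Timd4*, *C1qa* and *Cd5l*. They were chosen by name as genes of macrophages, and every probe that the array annotation assigns to them was read, 13 of 55681 probes. Microsomic mice were those born in the lowest 10% of weights for their sex, by natural variation within the inbred colony. The 4 groups, all of strain C57BL/6J and labelled Embryonic Day 20, were the microsomic mice, female (MF) and male (MM), and the mice of normal weight that served as controls, female (CF) and male (CM), with 1 array of whole liver RNA each. Age and strain are those of the labels, and differ from the methods, which have newborn mice of C57BL/6 N. How many animals gave RNA to an array is not given in the labels. The study asked how the livers of mice born small differ from those of normal birth weight in each sex.

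Kupffer cells are the resident macrophages of the liver, settled in the sinusoids, where they take up bacteria, dying cells and haemoglobin from the blood. In the perinatal liver, which still makes blood cells, they sit beside erythroid cells, granulocytes and their precursors. Signalling through the receptor CSF1R keeps macrophages alive, and Kupffer cells carry a set of receptors for phagocytosis, scavenging and complement. In bulk tissue, a lower signal from fewer cells of a type cannot be told apart from less RNA per cell.

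Levels are log2 signals from which the log2 of the 75th percentile over the spots of the array was subtracted, so that 0 is the 75th percentile, and differences are taken for the same probe between arrays. The 75th percentile lay between 627.6 and 925.0 signal units and 56.1 to 65.3% of spots were well above background. With 1 array per group no test of a pair of arrays is possible, and a gene was counted as higher or lower past 1.5-fold (0.58 on the log2 scale). Over 238 probes printed at several spots, the median SD between spots was 0.18 to 0.26, which puts the spot error of a difference at 0.34 for MF minus CF and 0.32 for MM minus CM. This error covers spots of an array, not animals. RNA of other organs stood out on 2 of the arrays, as judged by genes chosen after their values were seen. On MF, all 5 intestinal genes examined had their highest level, among them *Cdx2*, the transcription factor of the intestinal epithelium, at -0.20, while the levels of -7.56 (MM), -6.47 (CF) and -6.10 (CM) were not well above background. On CF, 4 of 5 heart genes had their highest level, among them *Nppa*, the atrial natriuretic peptide, at 2.23 against -4.56 on MF, -4.86 on MM and -3.38 on CM. Their part in the differences described here was not tested.

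The labelled tissue held macrophage transcripts on every array. Of the 13 probes, 12 were well above background on all 4 arrays, and the exception was *Cd163*, which was well above background on MF and MM alone. *Clec4f*, a lectin made by Kupffer cells, lay between 2.31 and 3.45, above the 75th percentile of every array.

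The probes on which the main contrasts between the members rest are shown by 30 of their 60 bases, the stretch richest in windows of C and T or, where there is none, the first 30. Capitals mark such windows, runs of 5 bases that hold no A or G and 3 or more C, because 20.4% of the probes with 4 or more such windows exceeded 1.5-fold in MF over CF, against 15.5% of probes without any. In MM over CM the shares were 10.5% and 18.5%, the other way round. Positions follow the mm9 coordinates of the annotation, without exon boundaries.
Clec4f, chr6:83595281-83595339, minus strand: aactggagacataggaacggagagcgagaa
Emr1, brighter probe, chr17:57622868-57622927, plus strand: ggtgttccagaaattctcatttaataccca
Emr1, second probe, chr17:57620350-57620409, plus strand: atgaatataagaaaCTCCTCaccaggaaga
Vsig4, chrX:93442598-93442657, minus strand: ggattaCTCCTCTttctctagggccagatg
Cd163, chr6:124270436-124270495, plus strand: gggcagtattggcagtagcaatatgTCTCC
C1qa, chr4:136452409-136452468, minus strand: ccggccagctttctcagccattcggcagaa
The *Clec4f*, *C1qa* and brighter *Emr1* probes have no such window, the whole *Cd163* probe has 1, the *Vsig4* probe 3 and the second *Emr1* probe 4.

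Promoters of the members were searched for motifs of macrophage transcription factors. RefSeq (GRCm38.p6) promoters were matched for 7 of the 10 members, *Cd68*, *Clec4f*, *Marco*, *Vsig4*, *Cd163*, *Timd4* and *Cd5l*, 5 of which were among the 8 genes higher in females, and the 250 bases before the start of each were read on both strands. GAGGAA, a core of PU.1 sites, was present in 4 of the 7 (*Cd68*, *Marco*, *Vsig4* and *Cd5l*), and in 23.3% of 32851 promoters of that length. GGAANNGAAA, a composite of an ETS and an IRF half-site, was present in *Timd4* alone and in 2.3% of promoters. TGANTCA, the AP-1 motif, was present in *Cd68* alone and in 6.75% of promoters. The first 2 motifs can share the letters GGAA. Each motif is shown in capitals in the promoters below, which were picked to show 1 example of each; a match is a description of letters, not of a bound site.
Cd68, chr11:69666171-69666420, minus strand: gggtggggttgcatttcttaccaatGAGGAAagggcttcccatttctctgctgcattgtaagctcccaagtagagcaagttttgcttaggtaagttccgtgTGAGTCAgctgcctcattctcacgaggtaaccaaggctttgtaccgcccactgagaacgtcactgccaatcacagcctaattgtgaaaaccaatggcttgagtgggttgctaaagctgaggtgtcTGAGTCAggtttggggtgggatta
Timd4, chr11:46810549-46810798, plus strand: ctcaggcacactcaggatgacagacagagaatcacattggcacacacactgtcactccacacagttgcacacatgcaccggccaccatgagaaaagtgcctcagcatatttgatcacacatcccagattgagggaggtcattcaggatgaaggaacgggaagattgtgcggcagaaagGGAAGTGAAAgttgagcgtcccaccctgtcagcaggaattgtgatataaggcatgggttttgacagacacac
Vsig4, chrX:96293439-96293688, minus strand: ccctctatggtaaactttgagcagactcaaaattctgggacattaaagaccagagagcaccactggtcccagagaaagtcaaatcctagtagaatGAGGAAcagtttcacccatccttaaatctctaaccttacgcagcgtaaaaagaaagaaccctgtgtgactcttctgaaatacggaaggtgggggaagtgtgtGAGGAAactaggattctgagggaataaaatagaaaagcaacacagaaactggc
The *Vsig4* promoter holds GAGGAA at 2 places.

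In females, 8 of the 10 members were over 1.5-fold higher in microsomic than in control liver and none was lower. These were the receptor *Csf1r*, the surface and lysosomal proteins *Emr1* and *Cd68*, the Kupffer cell genes *Clec4f*, *Timd4* and *Cd5l*, the scavenger receptor *Marco* and the complement gene *C1qa*. *Vsig4* differed by less than the spot error, and *Cd163* gave no fold. Over all 25536 genes measured in this pair, 40.9% were past 1.5-fold, 19.9% higher and 21.0% lower. Among 9635 genes measured on all arrays and as bright as the 9 members so measured, 35.5% were past it, 17.0% higher and 18.5% lower. The median of the members was 0.74 on the log2 scale, over the 9 with a fold, and that of all genes was -0.06. Without scaling between arrays 35.8% of genes were higher and 9.16% lower, the median of all genes was 0.34 and that of the members 1.14. With quantile normalization 4 members were over 1.5-fold higher, as against 8.

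In males, 3 members were over 1.5-fold higher in microsomic liver, *Clec4f*, *Vsig4* and *Cd163*, and 1 was lower, *C1qa*. Over 26313 genes, 40.8% were past 1.5-fold, 17.7% higher and 23.1% lower. Among the genes measured on all arrays and as bright as the 9 members so measured, 27.0% were past it. *Cd163* is not of these 9, of which 2 were higher and 1 was lower. Over the 9 members measured on all arrays the median was 0.09, and over all such genes -0.03; with *Cd163*, which enters as a lower bound, the members' median was 0.30. The count in males depended on the scaling: 6 members were higher and none lower in the deposited values, where 44.8% of all genes were higher and 12.4% lower, and 5 higher and none lower with each array centred on its median, where 27.4% of all genes were higher and 17.5% lower. *Clec4f* was the member past 1.5-fold in the same direction in both sexes, and over all genes 3.18% were higher in both. *C1qa* was the member past it in opposite directions, as 9.85% of all genes were.

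**Figure D1:**
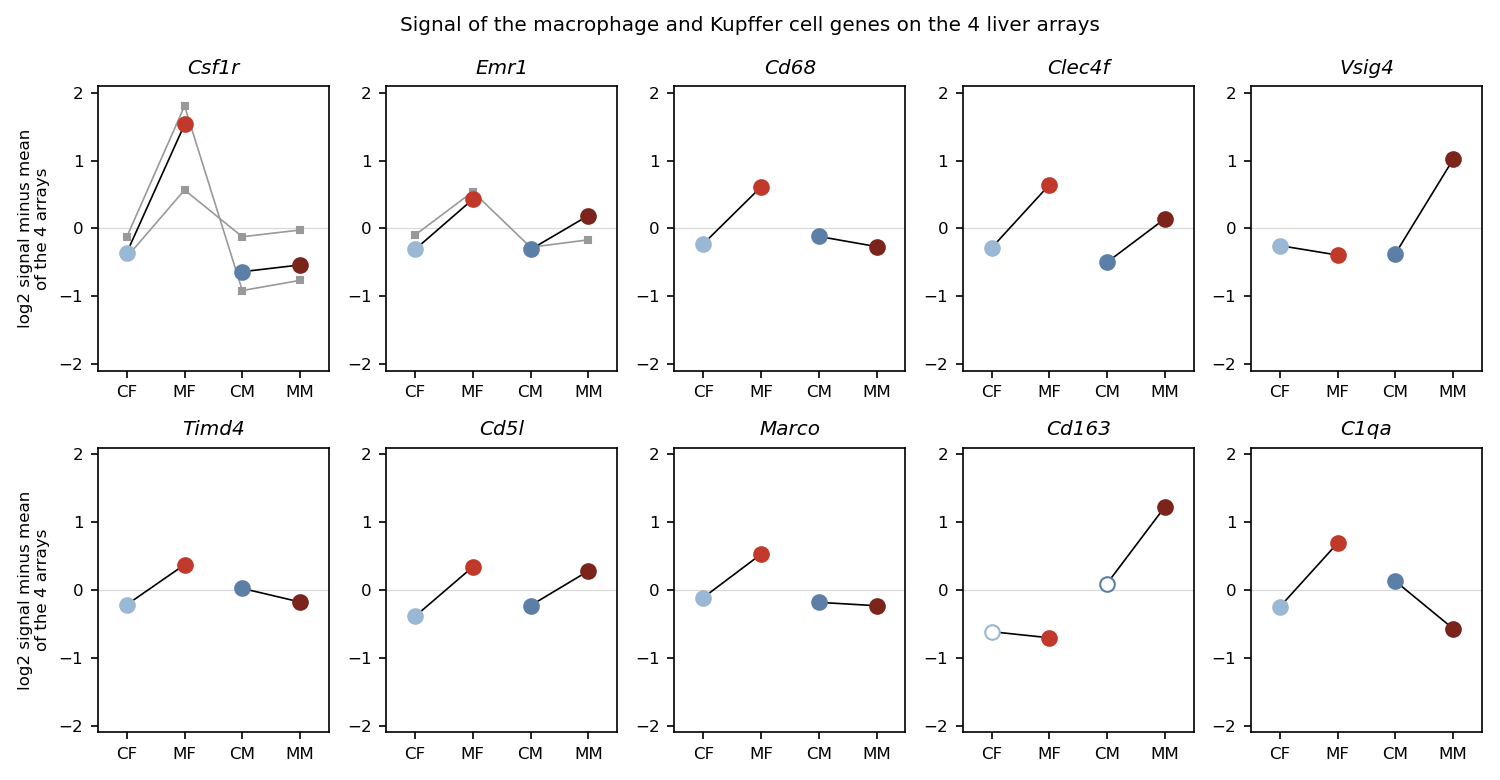
Level of each of the 10 genes on the 4 arrays (CF, MF, CM, MM; 1 array each), as the log2 signal minus the mean of the 4 arrays for that probe; coloured circles are the brightest probe without an outlier flag, open where it is not well above background, and grey squares are the other probes of *Csf1r* and *Emr1*. The MF point is the highest of the 4 for 8 genes, and the MM point for *Vsig4* and *Cd163*.

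*Emr1*, *Cd68* and *Csf1r* are expressed by macrophages of most tissues. *Emr1* encodes F4/80, the adhesion receptor by which mouse macrophages are recognised. Its brighter probe lay at 3.86 on MF, 3.62 on MM and, in the controls, 3.12 on CF and 3.12 on CM. Both microsomic arrays were thus above both controls, which did not differ. The difference was 0.74 (1.67-fold) in females and 0.50 (1.42-fold) in males. The second probe read 3.04, 2.33, 2.40 and 2.22 on MF, MM, CF and CM. It gave 0.63 (1.55-fold) in females and 0.11 in males, so that both probes were past 1.5-fold in females and neither was in males. On the second probe MM lay below CF. With normexp and quantile normalization the male difference of the gene was -0.55.

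*Cd68* encodes macrosialin, a glycoprotein of macrophage lysosomes. Its probe (chr11:69478979-69479038) lay at 0.37 on MF, -0.51 on MM and, in the controls, -0.47 on CF and -0.36 on CM. MF stood alone, with the other 3 arrays within 0.15 of each other. The difference was 0.83 (1.78-fold) in females and -0.15 in males, the latter under the spot error. With normexp and quantile normalization the male difference was -0.87, past 1.5-fold lower.

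*Csf1r* encodes the receptor for CSF-1 and IL-34. On its brightest probe (chr18:61290725-61290784) it lay at 6.96 on MF, 4.89 on MM and, in the controls, 5.07 on CF and 4.79 on CM, and again MF stood apart from 3 arrays that were close to each other. The difference was 1.89 (3.71-fold) in females, higher than that of 95.2% of all genes, and 0.09 in males. This probe carries 6 windows of C and T. A second probe (chr18:61289398-61289758) read 2.39, 1.80, 1.40 and 1.70 on MF, MM, CF and CM, a difference of 0.99 (1.98-fold) in females and 0.10 in males. The third probe (chr18:61278661-61278720) carries an outlier flag on MF and was left out of the gene's value; it read 2.62, 0.05, 0.69 and -0.10, which is 1.94 (3.82-fold) in females and 0.15 in males. All 3 probes were thus highest on MF, the size ranging from 1.98-fold to 3.82-fold.

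Among the genes by which Kupffer cells are told from other macrophages, *Clec4f* gave 3.45 on MF, 2.95 on MM and, in the controls, 2.52 on CF and 2.31 on CM. Both microsomic arrays were above both controls. The difference was 0.93 (1.91-fold) in females and 0.63 (1.55-fold) in males. With normexp background correction and quantile normalization the male value was 0.01 and the female value stayed past 1.5-fold.

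*Cd5l* encodes a secreted protein of tissue macrophages that protects cells from apoptosis. Its probe (chr3:87174823-87174882) lay at 4.97 on MF, 4.91 on MM and, in the controls, 4.24 on CF and 4.40 on CM. The microsomic arrays, 0.06 apart, both exceeded the controls, which were 0.16 apart. The difference was 0.73 (1.66-fold) in females and 0.52 (1.43-fold) in males, and with normexp and quantile normalization it was -0.26 in males.

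*Timd4* encodes TIM4, a receptor for phosphatidylserine on dying cells. On its probe (chr11:46657173-46657232) the levels were 0.89 on MF, 0.34 on MM and, in the controls, 0.30 on CF and 0.54 on CM. The difference of 0.59 in females lay at the threshold, just past it, and the -0.20 in males was under the spot error. With normexp and quantile normalization the values were 0.38 in females and -1.19 in males, the latter past 1.5-fold lower.

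*Vsig4* encodes CRIg, the receptor by which Kupffer cells bind particles coated with complement C3 fragments. Unlike the members *Clec4f*, *Cd5l* and *Timd4* it was not higher in females, with 1.98 on MF, 3.39 on MM and, in the controls, 2.12 on CF and 2.0 on CM. The 15 other genes linked to Kupffer cells, of which *Kcna2* gave no fold, had a female median of -0.23. MM stood alone and the other 3 arrays were within the spot error of each other. The difference was -0.14 in females and 1.39 (2.62-fold) in males, higher than that of 90.1% of all genes. It was between 1.24 and 1.95 in males under every one of 11 alternatives, some of which leave its value unchanged by construction.

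The scavenger receptors *Marco* and *Cd163* differed in pattern. *Marco* takes up bacteria and particles; its probe (chr1:122371115-122371134) read 5.01 on MF, 4.25 on MM and, in the controls, 4.37 on CF and 4.30 on CM. MF was the highest and the other 3 lay within the spot error of each other. The difference was 0.64 (1.56-fold) in females and -0.05 in males. With normexp and quantile normalization the female difference was -0.14, the only female call among the members to change sign.

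*Cd163* clears haemoglobin bound to haptoglobin and was near the detection limit, at -5.66 on MF, -3.73 on MM and, in the controls, -5.57 on CF and -4.86 on CM. The controls were not well above background, and the lowest level that was so lay at -5.48 on CF and -4.68 on CM. The MM level was at least 1.94-fold higher than that of CM, and it was 3.84-fold higher than that of MF, where both were measured. No fold can be given in females. With normexp and quantile normalization the male difference was 0.41 on the log2 scale, short of 1.5-fold.

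*C1qa* encodes the A chain of C1q, the starter of the classical complement pathway, made by macrophages. Its levels were 5.06 on MF, 3.80 on MM and, in the controls, 4.12 on CF and 4.50 on CM. MF was highest and MM lowest, with the controls in between. The difference was 0.94 (1.91-fold) higher in females, and in males CM was 1.62-fold higher than MM (-0.70 on the log2 scale). In the deposited values without scaling the male difference was -0.14, short of 1.5-fold.

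**Figure D2:**
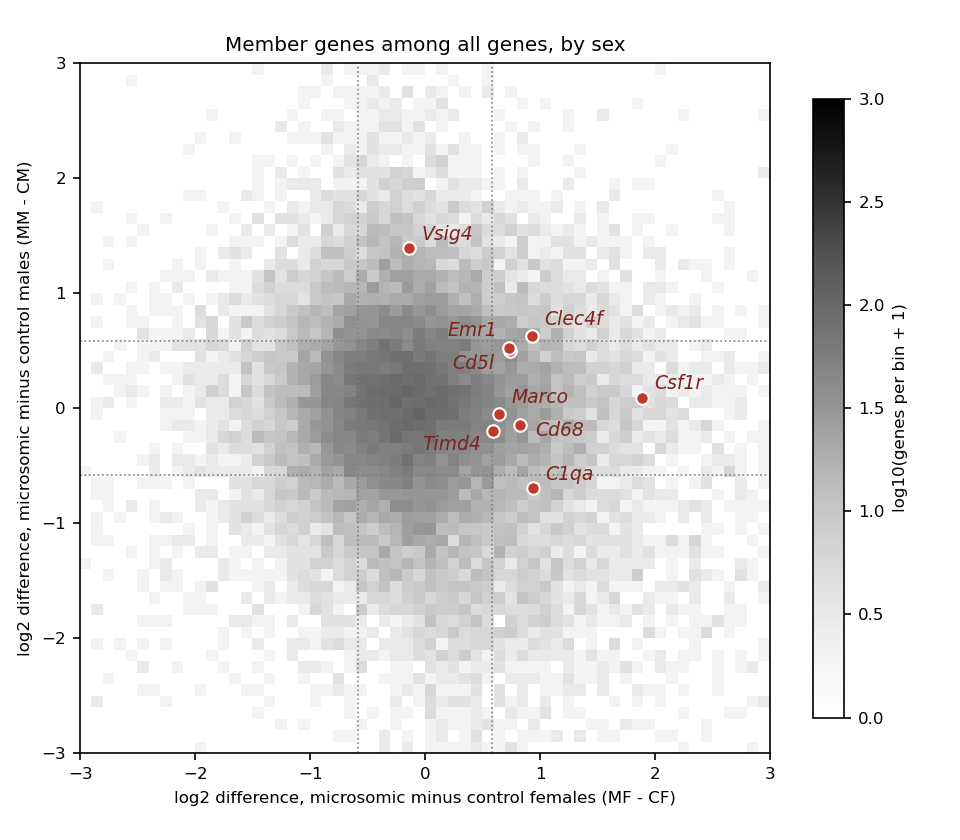
Log2 difference in females (MF minus CF, horizontal) against that in males (MM minus CM, vertical) for 22798 genes, of which 22340 fall within the axes, counted in grey bins on a log10 scale; red points are 9 members (*Cd163* has no female value) and dotted lines mark 1.5-fold. Of the 9, 8 lie right of the upper female line, *Vsig4* lies above the male line near 0 in females, and *C1qa* lies below the lower male line.

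The sexes were compared at each birth weight with the same arrays. Between the controls (CM minus CF) no member of 9 was past 1.5-fold, against 46.3% of 25195 genes (26.6% higher, 19.7% lower) and 31.9% of the 9635 genes as bright as the members, and the differences ran from -0.27 for *Csf1r* to 0.38 for *C1qa* with a median of -0.01. This count held on the 75th percentile scale; with each array centred on its median, 2 members were lower in CM, and with normexp and quantile normalization 5 were higher and 1 lower. Between the microsomic mice (MM minus MF), 2 members were higher in males, *Vsig4* (2.66-fold) and *Cd163*, and 4 were lower, *Cd68*, *Marco*, *Csf1r* and *C1qa*, against 49.4% of 26734 genes past 1.5-fold (28.9% higher, 20.5% lower) and 44.4% of those as bright as the members. The differences of the 4 were -0.88, -0.75, -2.07 and -1.25. The share of genes as bright as the members covers those measured on all arrays, so that *Cd163* is outside it. Over the 9 members so measured, 1 was higher and 4 were lower. These pairs share arrays with the comparisons within each sex and add no samples. Both microsomic arrays were above both control arrays for 3 of the 9 members measured on all arrays, *Emr1*, *Clec4f* and *Cd5l*, and for 11.6% of all such genes. With normexp and quantile normalization MM was below CM for *Emr1* and *Cd5l*. For *Clec4f*, under that setting, CM exceeded CF by 0.96 and MF exceeded CF by 0.85, so that MF lay below CM. None of the 3 genes thus kept the pattern there. On the 75th percentile scale MF was the highest array for 8 members, and for 25.8% of the 19298 genes measured on all of them.

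Over both sexes, limma with microsomia and sex as terms left 1 residual degree of freedom, the difference between the sexes in microsomic minus control. No gene of 19298 had an adjusted p (limma, Benjamini-Hochberg) under 0.05, the smallest being 0.966, while 851 genes (4.41%) had an unadjusted p under 0.05. None of the 9 members in the fit was among the 851. The differences of microsomic minus control with their limma standard errors were 0.99 ± 0.53 for *Csf1r* and 0.78 ± 0.42 for *Clec4f*. They were 0.62 ± 0.41 for both *Emr1* and *Cd5l*, 0.62 ± 0.50 for *Vsig4*, and 0.12 ± 0.51 for *C1qa*. *Cd68* had 0.34 ± 0.45, *Marco* 0.30 ± 0.43 and *Timd4* 0.19 ± 0.44. The adjusted p of each was 0.995 (limma, Benjamini-Hochberg), so that no difference between microsomic and control liver was shown for a member by a test.

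**Figure D3:**
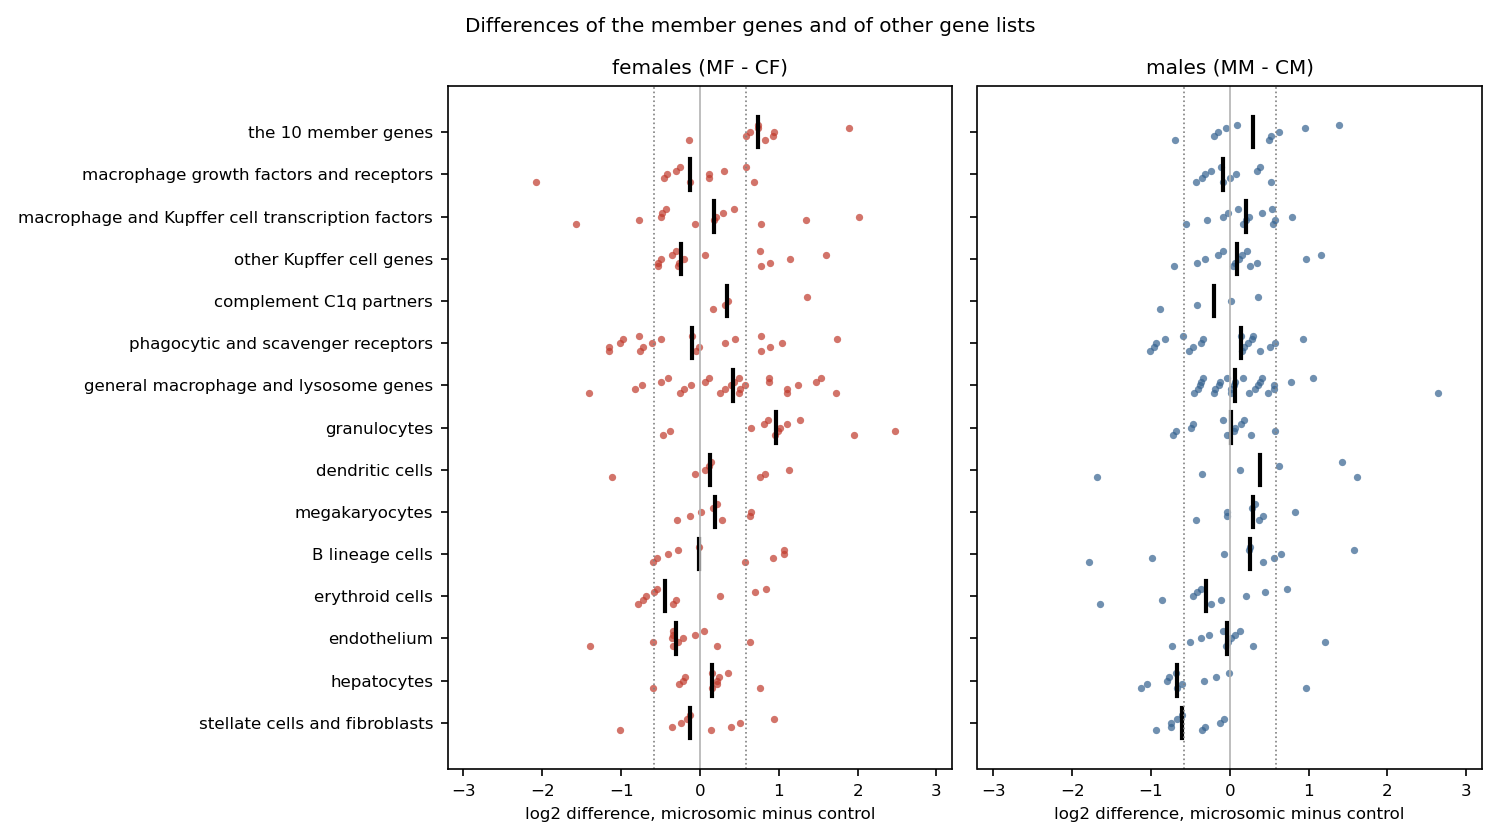
Log2 difference of microsomic minus control liver in females (left) and males (right) for the 10 member genes and for each gene of 14 other lists; a point is a gene, a black bar the median of its list, and dotted lines mark 1.5-fold. In females the members and the granulocyte genes have the medians farthest to the right, 0.74 and 0.97. The male median of the members, 0.30, includes the bound of *Cd163*, and the male medians of hepatocyte and stellate cell genes, -0.67 and -0.60, move to -0.02 and -0.14 with normexp and quantile normalization.

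Counts of the other genes of macrophage biology were as follows. In females 24 of 88 such genes from 6 lists were over 1.5-fold higher and 14 were lower, with a median of 0.11, and in males 7 were higher and 7 lower, with a median of 0.07. The shares past 1.5-fold were 43.2% in females, near the 40.9% of all genes, and 15.9% in males, where all genes had 40.8% and those as bright as the members 27.0%. Of 11 growth factors and receptors of macrophages, 2 were higher and 1 lower in females (median -0.12) and none was past 1.5-fold in males (median -0.09). The ligands of CSF1R gave 0.31 in females and 0.00 in males for *Csf1*, and -2.08 and -0.43 for *Il34*. The 3 probes of *Csf1* ranged from -1.99 to 0.00 in males and from -0.08 to 0.31 in females. Thus neither ligand was over 1.5-fold higher in microsomic liver of a sex, and *Il34* was 4.24-fold higher in CF than in MF. The levels of *Il34* were -3.73 on MF, -3.86 on MM and, in the controls, -1.65 on CF and -3.43 on CM. CF thus stood apart from the other arrays, MF lying near CM.

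Of 13 transcription factors of macrophages and Kupffer cells, 3 were higher and 2 lower in females (median 0.18), and 1 was higher in males (median 0.20). *Sfpi1*, which encodes PU.1, gave 0.29 in females and -0.29 in males, and *Nr1h3*, which encodes the oxysterol receptor LXR alpha, -0.43 and 0.25. *Klf4*, a factor of monocyte differentiation, was higher in both sexes, at 0.96 on MF and -0.38 on CF (2.54-fold), and 0.20 on MM and -0.59 on CM (1.73-fold).

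Of 15 other genes linked to Kupffer cells, 5 were higher and none lower in females, with a median of -0.23, and 2 were higher and 1 lower in males, with a median of 0.10. *Kcna2*, not well above background on the controls, gave no fold in either sex and is outside the medians. *Fcna*, the plasma lectin ficolin A, gave 0.76 in females and -0.15 in males, and *Folr2*, a folate receptor of resident macrophages, 0.06 and -0.32. *Paqr9* was higher in both sexes, by 0.89 (1.85-fold) and 0.97 (1.97-fold). Of the 4 partners of *C1qa* in the C1 complex, *C1qc* was higher in females (1.36) and at 0.01 in males, *C1qb* was at 0.32 in females and lower in males (-0.89), and the proteases *C1ra* and *C1s* were within 1.5-fold in both sexes. Hence the 3 chains of C1q had positive differences in females, 2 of them past 1.5-fold, while in males 2 were lower past 1.5-fold.

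The receptors for phagocytosis and scavenging went both ways. In females 5 of 19 were higher and 8 lower (median -0.10), and in males 1 was higher and 5 lower (median 0.14). *Mrc1*, the mannose receptor, gave -0.77 in females and 0.18 in males. *Msr1*, the class A scavenger receptor related to *Marco*, lay at -0.15 on MF, 1.74 on MM and, in the controls, 1.02 on CF and 1.60 on CM, a level 2.24-fold higher in CF than in MF, and its 2 probes gave -1.16 and -1.09 in females and 0.14 and -0.63 in males. The 5 genes higher in females were *Scarb1* (1.74), *Itgam* (1.04), *Cd14* (0.89), *Axl* (0.77) and *Siglec1* (0.77), receptors for lipoproteins, complement, endotoxin, dying cells and sialic acid. The second probes of *Scarb1* and *Itgam* gave 0.07 and -0.10. The other 6 genes lower in females, named like these 5 after their values were seen, were *Cd36*, *Mertk*, *Fcgr2b*, *Fcgr3*, *Clec7a* and *Tlr4*, from -0.61 for *Cd36* to -1.15 for *Fcgr2b*. These encode receptors for lipids, dying cells, antibodies, fungal glucan and endotoxin. On the brightest probe, all 8 lay under 1.5-fold in males, between -0.36 and 0.58.

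Of 26 general macrophage and lysosome genes, 8 were higher and 3 lower in females (median 0.41), and 3 were higher and none lower in males (median 0.06). *Aif1*, a calcium-binding protein of macrophages, gave 0.87 in females and -0.14 in males, and *Tyrobp*, the signalling adaptor DAP12, 1.11 and 0.01. For *Itgam*, *Mpeg1* and 5 further of the 25 genes of these lists with several probes, the probes differed in sign in females. In males they did so for 9 of the 25, and for *Vcam1* (-0.80 and 1.16) and *Scarb1* (-0.96 and 0.83) they were past 1.5-fold both ways.

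Genes of other cell types were read in the same way. In females 10 of 12 granulocyte genes were higher past 1.5-fold and none was lower, with a median of 0.97; all 12 were well above background on every array. The median was 0.39 with quantile normalization and 0.43 with normexp and quantile normalization. *Elane*, the elastase of neutrophil granules, lay at 7.61 on MF, 4.61 on MM and, in the controls, 5.67 on CF and 5.09 on CM, and *Mpo*, the myeloperoxidase, at 6.30, 5.07, 5.29 and 5.02. *Elane* and *Mpo* thus had the same array on top as 8 of the members. The summed level of the 12 genes was 2070 on MF, 1030 on MM and, in the controls, 1020 on CF and 1340 on CM, in units of the 75th percentile, and that of the members 254, 125, 111 and 111. Such a sum adds signals of different probes and is weighted to the bright ones, in the members to *Csf1r*. In males none was higher and 2 were lower, with a median of 0.01. Some macrophage genes of the lists, *Lyz2* and *Tyrobp* among them, are also expressed by granulocytes, and the part of granulocytes in the member values was not tested.

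Of 11 hepatocyte genes, 1 was higher and 7 lower in males (median -0.67), and 1 higher and 1 lower in females (median 0.15). With quantile normalization the medians were -0.03 in males and -0.62 in females, and with normexp and quantile normalization -0.02 and -0.05. Their summed level was 8180 on MF, 5430 on MM and, in the controls, 7910 on CF and 8120 on CM. *Alb* gave 0.22 in females and -0.33 in males, and *Ttr* 0.36 and -0.61. Of 9 stellate cell and fibroblast genes none was higher and 5 were lower in males (median -0.60, or -0.14 with normexp and quantile normalization; -0.12 in females), with *Col1a1* at -0.36 in females and -0.67 in males and *Col1a2* at -0.12 and -0.60. Of 10 erythroid genes 2 were higher and 3 lower in females and 1 and 2 in males (medians -0.44 and -0.30). *Hbb-b1*, a beta globin, was lower in both sexes, by -0.68 and -0.86, and *Hba-a1* gave -0.54 and -0.46.

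The remaining lists had medians of -0.31 to 0.38. Among endothelial genes *Pecam1* gave -0.34 in females and -0.50 in males, and *Cdh5* -0.34 and 0.13 (medians -0.31 and -0.04). Megakaryocyte genes had medians of 0.19 and 0.30, with *Pf4* at 0.28 and 0.83 and *Ppbp* at 0.63 and -0.04. B lineage genes had medians of -0.01 and 0.26, with *Cd79a* at 1.07 and 0.56 and *Cd79b* at -0.55 and 0.24. Dendritic cell genes had medians of 0.12 and 0.38, with *Flt3* at 0.11 and -0.35 and *Zbtb46* at 0.14 and -1.68. *Siglech*, a lectin of plasmacytoid dendritic cells, was higher in both sexes, by 1.13 and 0.63.

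Likeness to the members was measured by the Euclidean distance over the 4 arrays between a gene's levels, centred on their mean, and the mean profile of the 9 members well above background on all arrays. That profile was 0.53 on MF, -0.02 on MM and, in the controls, -0.27 on CF and -0.24 on CM. Among 13708 other named genes the nearest were *Pde4d*, *1700017B05Rik*, *Gm13215*, *Batf3* and *Ddx46*, at distances of 0.04 to 0.09, where the median gene lay at 0.97. Of the members, *Emr1* (0.24) and *Marco* (0.27) were nearest to their own mean, and *Csf1r* (1.20) and *Vsig4* (1.39) were farthest, both beyond the median gene. A distance over 4 arrays is a description with no test.

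**Figure D4:**
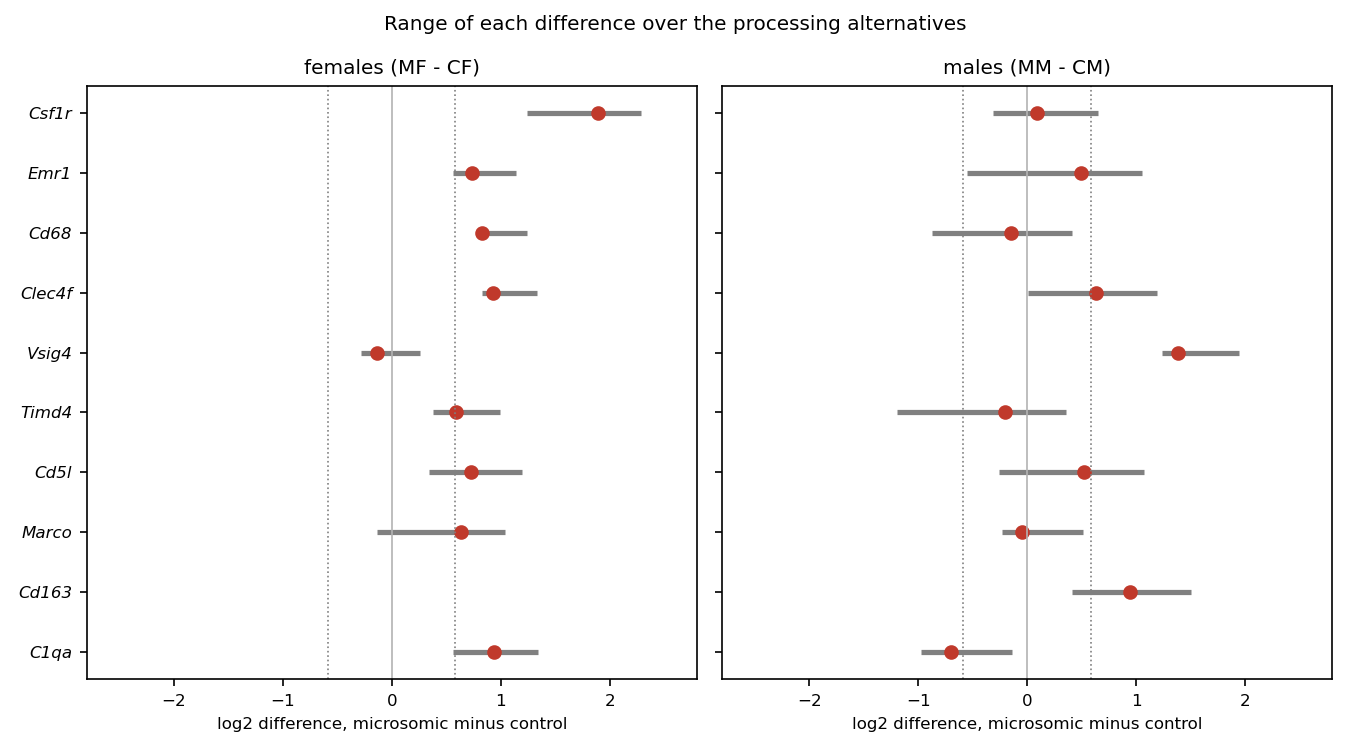
Log2 difference of microsomic minus control liver for each member in females (left) and males (right) as reported (red point) and its range over the alternative ways of processing (grey bar); dotted lines mark 1.5-fold, and *Cd163* has no female value. In females the whole bar of *Csf1r*, *Cd68* and *Clec4f* lies past 1.5-fold, and in males that of *Vsig4* does.

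Across 11 alternatives, *Csf1r* in females was between 1.24 and 2.29, *Cd68* between 0.83 and 1.24 and *Clec4f* between 0.83 and 1.33, so that each stayed past 1.5-fold throughout. *Emr1*, *Cd5l*, *C1qa*, *Timd4* and *Marco* each fell short of it under 1 or 2 of the settings. In males *Vsig4* was past it throughout, and *Clec4f* and *C1qa* each in 8 of the 12 settings, the reported one included. For *C1qa* the male value fell short with median centring (-0.46), without scaling (-0.14) and with the GC or position trend removed. A gene with 1 probe, unflagged and well above background on every array, keeps its value by construction under several settings. These are outlier spots kept, the mean over probes and the filters on dim probes. They are no check on *Cd68*, *Clec4f*, *Vsig4* and *C1qa*.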

How the data were processed

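The authors labelled total RNA of whole liver with Cy3 and hybridized it to Agilent 60-base arrays. Per the file headers, Agilent Feature Extraction 10.7.3.1 gave each spot a processed signal, and the deposited intensity is this background-subtracted and detrended signal on a linear scale. The deposited table of values was checked to equal it in 62976 spots on each array. The study's methods mention replicate experiments; 1 array per group was analysed here. All arrays lie on the same slide, where group and array position cannot be told apart.

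Signals were put on the log2 scale and reduced by the 75th percentile over the 59305 non-control spots of their array. The 1754 spots flagged as outliers on 1 or more arrays were dropped, spots of a probe were averaged, and a gene was read by its brightest probe. MF carried the most flagged spots, 1008, while CM had 222, CF 287 and MM 331. Saturated spots were also most frequent there, 22, with 1 each for CM and CF and 0 for MM. Their bearing on the female differences was not tested beyond keeping the outlier spots. Genes well above background on at least 1 array of a pair were counted past 1.5-fold; against an array where a probe was not well above background, a difference is a lower bound. limma 3.58.1 (R 4.3.3) was fitted to all 4 arrays with sex as a second term, threshold 0.05 after Benjamini-Hochberg adjustment, and was tested on simulated data. p-values measure only the spread between these arrays. In this fit that spread is the difference between the sexes in microsomic minus control, drawn toward that of all genes. It is not a spread between animals of a group.

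All members are named, with every probe; of each other list the first 2 measured genes and every gene past 1.5-fold the same way in both sexes; and the 5 genes nearest to the members' profile. Genes named beyond this rule, apart from those said in place to be so, are *C1ra*, *C1s*, *Kcna2*, *Lyz2*, *Mpeg1* and *Vcam1*. Some genes of the lists are not reported here by name. The members and lists were chosen with earlier results of these data known. Names are those of the array annotation. Alternatives were median centring, quantile normalization, normexp (offset 50) with quantile normalization, the deposited values unscaled, filters on dim probes, the mean over probes, outlier spots kept and a 2-fold threshold, for limma also no sex term and the methods' threshold, and, added after seeing the data, removal of trends with GC content, array position and windows of C and T. The number of arrays limits the precision of every value.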

Additional observations from a re-analysis of the deposited data

Results flagged for a closer look

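In 3 genes of the macrophage lists the microsomic minus control difference was past 1.5-fold in opposite directions in the sexes. The same held for 9.85% of all 23966 genes measured in both pairs, so such genes are not particular to these lists. With 1 array per group, the difference between the sexes was not tested. *C1qa* was at 0.94 in females and -0.70 in males, where it fell short of 1.5-fold with median centring (-0.46) and without scaling (-0.14). *Cd14*, the endotoxin co-receptor, was at 0.89 and -1.01. *Scarb1*, a lipoprotein receptor also made by hepatocytes, was at 1.74 and -0.96, but its other probe gave 0.07 in females and 0.83 in males, so that the opposite directions rest on 1 of its 2 probes.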

How the results depend on the processing

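No paired analysis was possible because each group has 1 array and the labels carry no replicate numbers, and for the same reason no array could be left out of a pair. In females, quantile normalization left 4 members higher and a 2-fold threshold 1; the median was 1.14 without scaling; *Marco* reversed to -0.14 with normexp. In males, the members higher numbered 5 with median centring, 1 with normexp, 6 without scaling and 1 at 2-fold; those lower numbered 3 with normexp and 0 with median centring, without scaling, at 2-fold, or with the GC or position trend removed; the median was -0.12 with normexp and 0.86 without scaling. In CM minus CF, median centring gave 2 lower and a median of -0.43, normexp 5 higher, 1 lower and a median of 0.77, and no filter on dim probes 1 higher. In MM minus MF, normexp gave 1 higher, the position trend removed a median of -0.83, and 2-fold 2 lower. Against the median of all genes, the members' median was 0.79 higher as reported and 0.80 higher without scaling in females. It was 0.64 higher there with quantile normalization and 1.01 higher with normexp. In males this difference of medians was 0.31 as reported and -0.17 with normexp. The reported one includes the lower bound of *Cd163*. Over the 9 members measured on all arrays the male median was 0.09, against -0.03 for all such genes. The members lower in males with normexp were *Cd68*, *Timd4* and *C1qa*. The cause of these changes was not tested. No limma setting gave a member an adjusted p (limma, Benjamini-Hochberg) under 0.05.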
